A study of Homo sapiens with 6 samples.

Results

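The collagens are a family of proteins built around a triple helix of 3 chains, and the level of each chain's RNA was followed here across 3 human cell lines. The chains were taken by name, as every gene whose symbol reads COL, a number, A and a number. This gave 43 of the 23340 genes measured. Earlier results of these data were known when the chains were chosen. By structure they were 11 fibrillar chains, 10 chains of fibril-associated collagens (FACIT), 6 chains of the basement membrane network, 5 beaded filament chains, 1 anchoring fibril chain, 3 hexagonal network chains, 4 transmembrane chains, 2 multiplexins and COL28A1.

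Total RNA was sequenced as read pairs, with 2 libraries per line and 6 in all. Per the labels, HT-29 is a colon adenocarcinoma line that was given interferon gamma (IFN-γ, a cytokine) at 200 U per ml for 24 hours, and no untreated HT-29 cells were analysed here. MDA-MB-436 is a breast adenocarcinoma line and MCF10A is a mammary epithelial line that does not form tumours, and neither is labelled as treated. The growth medium differed as well: McCoy's 5A with fetal bovine serum for HT-29, L-15 with fetal bovine serum and no CO2 for MDA-MB-436, and DMEM/F12 with horse serum, EGF, hydrocortisone, cholera toxin and insulin for MCF10A. Line, tissue, medium and treatment change together between the groups, so their parts in a difference cannot be told apart. Each group is a single line. Its 2 libraries are described as a duplicate at a lower and a higher read number, and no label says that they were separate cultures: every p-value below reflects the difference between such duplicates alone, which may be technical.

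Collagen chains fold in the endoplasmic reticulum, where prolines and lysines are hydroxylated, and they leave the cell as procollagens that proteases trim and oxidases cross-link. Epithelial cells are known mainly for the basement membrane network of type IV collagen and for collagens that anchor cells to it, such as the transmembrane chain COL17A1 of hemidesmosomes and the anchoring fibril chain COL7A1. Fibrillar collagens and the microfibrils of type VI collagen are mostly known as products of mesenchymal cells.

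The markers of tissue origin went against the labels of 4 libraries. KRT20, an intestinal keratin, had 0 and 0.547 normalised counts in the HT-29-labelled libraries with IFN-γ, 29899.7 and 30879.7 in the MDA-MB-436-labelled ones and 0 and 1.47 in MCF10A. VIL1, which builds the brush border of intestinal cells, had 0 and 0 (HT-29 label), 2055 and 2198 (MDA-MB-436 label) and 0 and 0 (MCF10A). VIM, a mesenchymal filament protein, had 36599 and 35267 (HT-29 label), 16.5 and 7.39 (MDA-MB-436 label) and 25901 and 26246 (MCF10A). All 8 intestinal markers of a list were called lower by limma under the HT-29 label than under the MDA-MB-436 label, and all 6 mesenchymal markers were called higher. Of all genes tested, 23.5% were called lower and 29.9% higher in this comparison. IRF1, GBP1 and CIITA, genes of the interferon response, were also highest under the MDA-MB-436 label: IRF1 had 2234 and 2194 normalised counts under the HT-29 label, 79637 and 79442 under the MDA-MB-436 label and 393 and 414 in MCF10A. Both groups are therefore called the HT-29-labelled and the MDA-MB-436-labelled libraries throughout, and every direction below is that of the label.

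The libraries held 16.7M to 69.5M reads. Reads of KRT5 and KRT14, abundant in MCF10A, were more frequent in the 25M than in the deeper libraries of the other lines: KRT14, a basal keratin with 225570.0 and 218996 normalised counts in MCF10A, had 91.5 and 2.74 in the 25M and the deeper HT-29-labelled library and 84.4 and 0.616 in the MDA-MB-436-labelled ones. Values of a few reads in a 25M library are given below with their read numbers. Of the 7 fibroblast markers 6 were tested. Under the HT-29 label 3 (DPT, PDGFRA and PDGFRB) were called higher and 2 lower than in MCF10A, beside 28.4% and 18.1% of all genes tested. Under the MDA-MB-436 label 1 was called higher and 3 lower than in MCF10A, beside 25.6% and 23.7%. Between the HT-29 and MDA-MB-436 labels 4 were called higher and 1 lower, beside 29.9% and 23.5%. DPT had 46.5 and 49.8 normalised counts (HT-29 label), 0 and 0 (MDA-MB-436 label) and 0 and 0.491 (MCF10A), while THY1 had 0 reads in 5 of 6 libraries and DCN and LUM had 0 in both HT-29-labelled libraries. The summed level of the list was 818 and 839 normalised counts in the HT-29-labelled libraries, 98.8 and 114 in the MDA-MB-436-labelled ones and 738 and 698 in MCF10A, most of it FAP. The 4 endothelial markers summed to 116 and 95.8 normalised counts under the HT-29 label, 14.4 and 12.3 under the MDA-MB-436 label and 22.5 and 31.4 in MCF10A, and the 4 leukocyte markers, mostly ITGAM, to 176 and 171, 45.3 and 23.4, and 13.1 and 15.7 in these lines. The part of such cells in the results on fibrillar and beaded chains was not tested. In such bulk samples fewer cells of a type and less RNA per cell cannot be told apart. Normalised counts are the authors' counts divided by 1 factor per library; scaling by total reads instead raised the median log2 fold change of all genes by 0.30 for HT-29 against MCF10A and by 0.32 for HT-29 against MDA-MB-436, so a difference of that size can turn on the scaling.

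In RefSeq's gene order 7 pairs of the 43 genes are direct neighbours, among them COL4A1 beside COL4A2 on chromosome 13 and COL4A5 beside COL4A6 on chromosome X, each pair read in opposite directions from start sites that lie close together. The stretches between these starts are shown because the pairs behaved differently in the MDA-MB-436-labelled libraries: COL4A5 and COL4A6 had 0 reads and 1 read there, while COL4A2 was low and COL4A1 was not. The sequences are RefSeq's for build GRCh38.p14, 5′ to 3′ on the strand of the gene named, and none is transcribed from either start. Capitals mark CCAAT and GGGCGG on either strand. The COL4A1 and COL4A2 starts are 127 bases apart and share all 126 bases between them, at chr13:110307158-110307283 on the plus strand. The COL4A5 and COL4A6 starts are 380 bases apart, and the 250 bases before each are given, at chrX:108439588-108439837 on the plus strand for COL4A5 and chrX:108439459-108439708 on the minus strand for COL4A6. These overlap, and both CCAAT matches of the COL4A5 stretch are among those of COL4A6.
COL4A2: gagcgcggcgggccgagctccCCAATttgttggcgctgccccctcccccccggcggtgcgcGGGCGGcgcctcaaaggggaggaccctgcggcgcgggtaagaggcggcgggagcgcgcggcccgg
COL4A5: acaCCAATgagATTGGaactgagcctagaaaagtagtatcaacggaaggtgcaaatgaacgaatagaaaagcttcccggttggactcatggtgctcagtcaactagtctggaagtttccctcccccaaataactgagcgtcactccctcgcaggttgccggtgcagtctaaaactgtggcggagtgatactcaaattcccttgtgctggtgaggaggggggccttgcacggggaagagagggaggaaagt
COL4A6: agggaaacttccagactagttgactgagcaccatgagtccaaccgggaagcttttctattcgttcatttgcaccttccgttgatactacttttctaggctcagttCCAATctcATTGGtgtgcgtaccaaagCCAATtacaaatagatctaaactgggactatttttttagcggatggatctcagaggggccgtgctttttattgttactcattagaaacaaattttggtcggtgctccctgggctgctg

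The COL4A1 to COL4A2 stretch was 80.2% G or C and held 1 CCAAT and 1 GGGCGG. The COL4A5 and COL4A6 stretches were 51.2% and 44.0% G or C, held 2 and 3 CCAAT and no GGGCGG. None of the 3 held TATAAA. In the same number of bases before 35116 RefSeq starts, CCAAT was found in 21.1% (126 bases) and 32.0% (250 bases), GGGCGG in 34.6% and 42.6%, and TATAAA in 5.87% and 10.7%, on either strand. A match is a description of letters and shows no binding. Promoters were given for 31 of the 43 genes.

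Collagen RNA as a whole made up 2029.8 ± 2.11 RPM (reads for every 1M reads of the library) in the HT-29-labelled libraries, 213 ± 1.45 in the MDA-MB-436-labelled ones and 1399.8 ± 9.97 in MCF10A (mean ± SD, n = 2 each). The groups did not overlap, but an exact two-sided permutation test of 2 against 2 cannot go below p = 0.333, so these sums are given without a test. The makeup differed as well. Under the HT-29 label the beaded chains took 31.0% of collagen reads, FACIT chains 19.6%, fibrillar chains 17.4% and basement membrane chains 14.3%. Under the MDA-MB-436 label the transmembrane chains took 31.3%, basement membrane chains 26.6%, multiplexins 20.1% and FACIT chains 12.1%. In MCF10A the transmembrane chains alone took 60.2% and basement membrane chains 29.5%, and beaded chains took 0.235%.

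**Figure D1:**
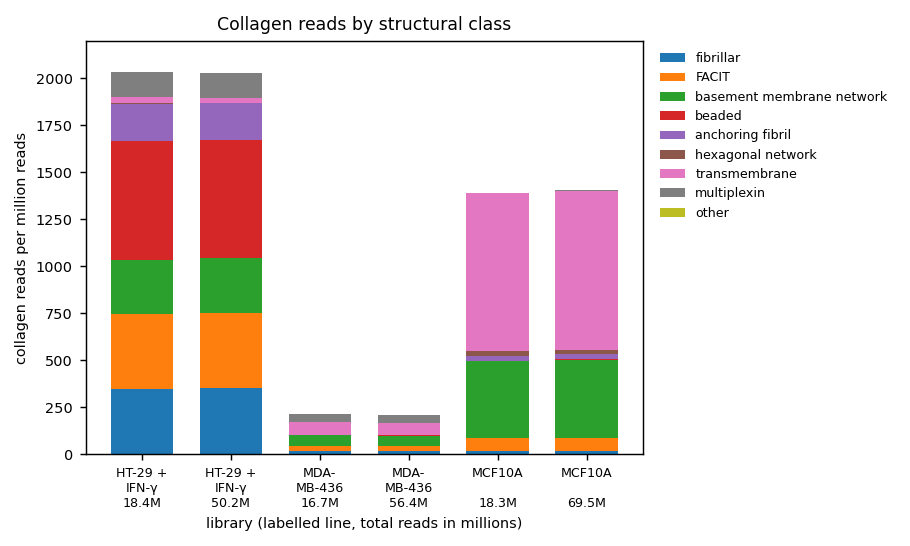
Collagen RPM in each of the 6 libraries (horizontal axis, named by labelled line and total reads), stacked by structural class. The HT-29-labelled libraries hold blocks of every large class, while the transmembrane and basement membrane classes fill most of the MCF10A bars.

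Beaded chains had 628 ± 2.94 RPM in the HT-29-labelled libraries, against 1.28 ± 0.306 in the MDA-MB-436-labelled ones and 3.29 ± 0.0784 in MCF10A. Fibrillar chains had 352 ± 2.76 (HT-29 label), 19.0 ± 0.538 (MDA-MB-436 label) and 16.8 ± 0.112 (MCF10A). The transmembrane sum, nearly all COL17A1 in the MDA-MB-436-labelled libraries and in MCF10A, was 30.2 ± 2.21 (HT-29 label), 66.8 ± 1.51 (MDA-MB-436 label) and 842 ± 4.74 (MCF10A), whereas COL13A1, COL23A1 and COL25A1 of this class were highest under the HT-29 label. Basement membrane chains had 290.2 ± 6.08 RPM in the HT-29-labelled libraries, 56.7 ± 2.04 in the MDA-MB-436-labelled ones and 413 ± 5.43 in MCF10A. Each SD is over 2 libraries, and for all 4 classes the gap between any 2 lines was larger than the SDs.

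A mean of at least 100 normalised counts was reached by 18 of the 43 chains in the HT-29-labelled libraries, by 8 in the MDA-MB-436-labelled ones and by 12 in MCF10A, and a mean of at least 1000 by 11 (HT-29 label), 3 (MDA-MB-436 label) and 6 (MCF10A). A mean under 10 was found for 13 chains under the HT-29 label, 31 under the MDA-MB-436 label and 23 in MCF10A, of which 3, 8 and 9 had no read in either library. For comparison between genes, levels were divided by transcript length. In RPM per kilobase, the HT-29-labelled libraries were led by COL6A2 at 91.9, COL6A1 at 73.2, COL16A1 at 49.9 and COL5A1 at 33.1. COL7A1 at 21.2 ± 0.405 and COL4A2 at 20.9 ± 0.437 came next and did not differ beyond their spread. The MDA-MB-436-labelled ones were led by COL17A1 at 11.7, COL4A1 at 7.37, COL18A1 at 6.49 and COL9A3 at 5.29 RPM per kilobase. MCF10A was led by COL17A1 at 148, followed by COL4A2 at 23.9, COL4A6 at 15.5, COL4A5 at 14.6 and COL4A1 at 8.76.

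**Figure D2:**
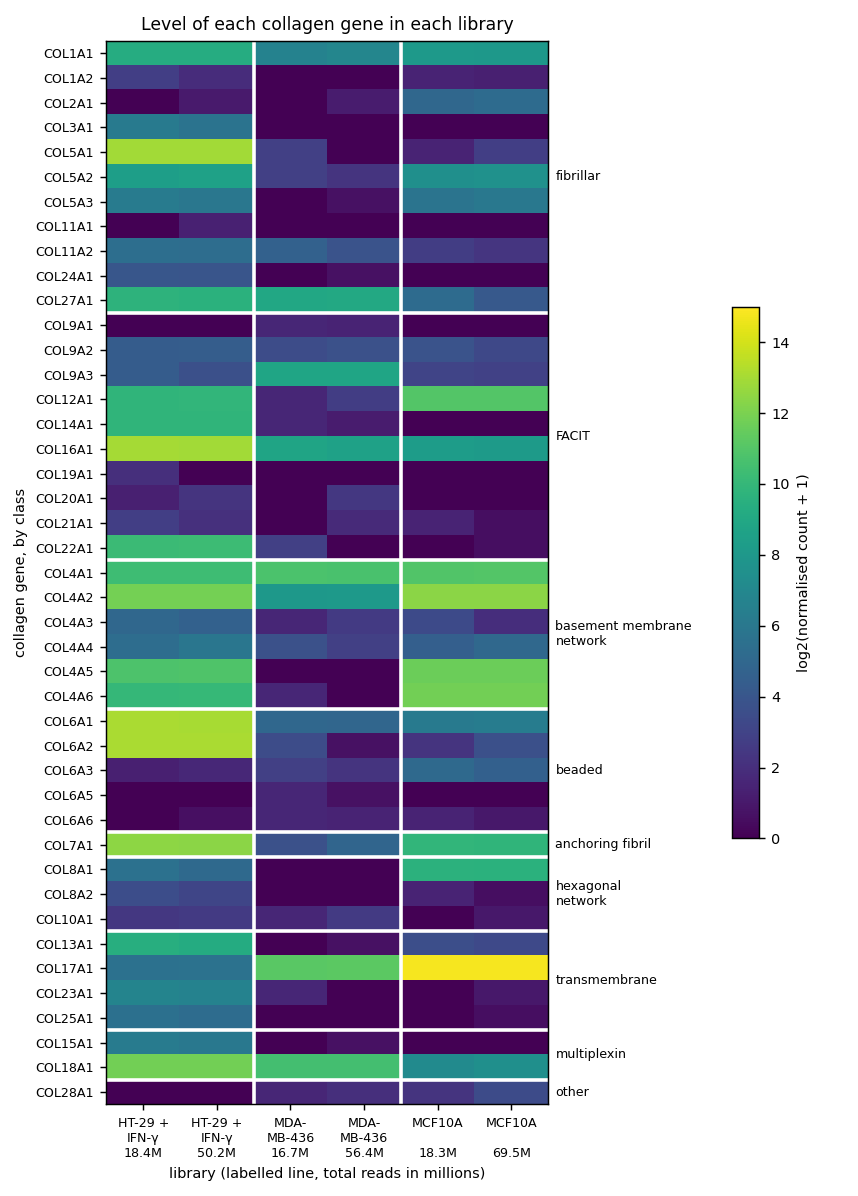
Level of all 43 collagen genes (rows, by class) in the 6 libraries (columns, named by labelled line and total reads), as log2(normalised count + 1) in colour. The 2 columns of a line look alike, and COL17A1 in MCF10A holds the brightest cells of the map.

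For tests of single chains, limma was fitted to log2(normalised count + 1) of 15638 genes with at least 10 normalised counts in 2 or more libraries, and a gene was called where the Benjamini-Hochberg adjusted p was below 0.05 and the log2 fold change was 1 or more in size. Of the 43 chains, 32 passed this filter and 11 did not. In the HT-29-labelled libraries against MCF10A, 19 of the 43 were called higher and 6 lower, and 7 were tested and not called. Over all genes tested, 46.5% were called in this comparison, 28.4% higher and 18.1% lower, so the number of lower chains was near the background. In the MDA-MB-436-labelled libraries against MCF10A, 5 were called higher, 15 lower and 12 not, where 49.2% of all genes were called, 25.6% higher and 23.7% lower. In the HT-29-labelled libraries against the MDA-MB-436-labelled ones, 25 were called higher, 3 lower and 4 not, beside 53.4% of all genes, 29.9% higher and 23.5% lower. The first pair of comparisons shares the MCF10A libraries and the third shares its libraries with both, so the counts are not independent.

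The median log2 fold change of the 32 tested chains was 2.37 for HT-29 against MCF10A, -0.80 for MDA-MB-436 against MCF10A and 5.39 for HT-29 against MDA-MB-436, which became 4.77 with chains at 0 reads in a line set at the bound that 3 reads over the line allow. The medians of all genes tested were 0.13, 0 and 0.09. A chain that is high in 1 line passes the filter through that line, so these medians describe the chains and test nothing.

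**Figure D3:**
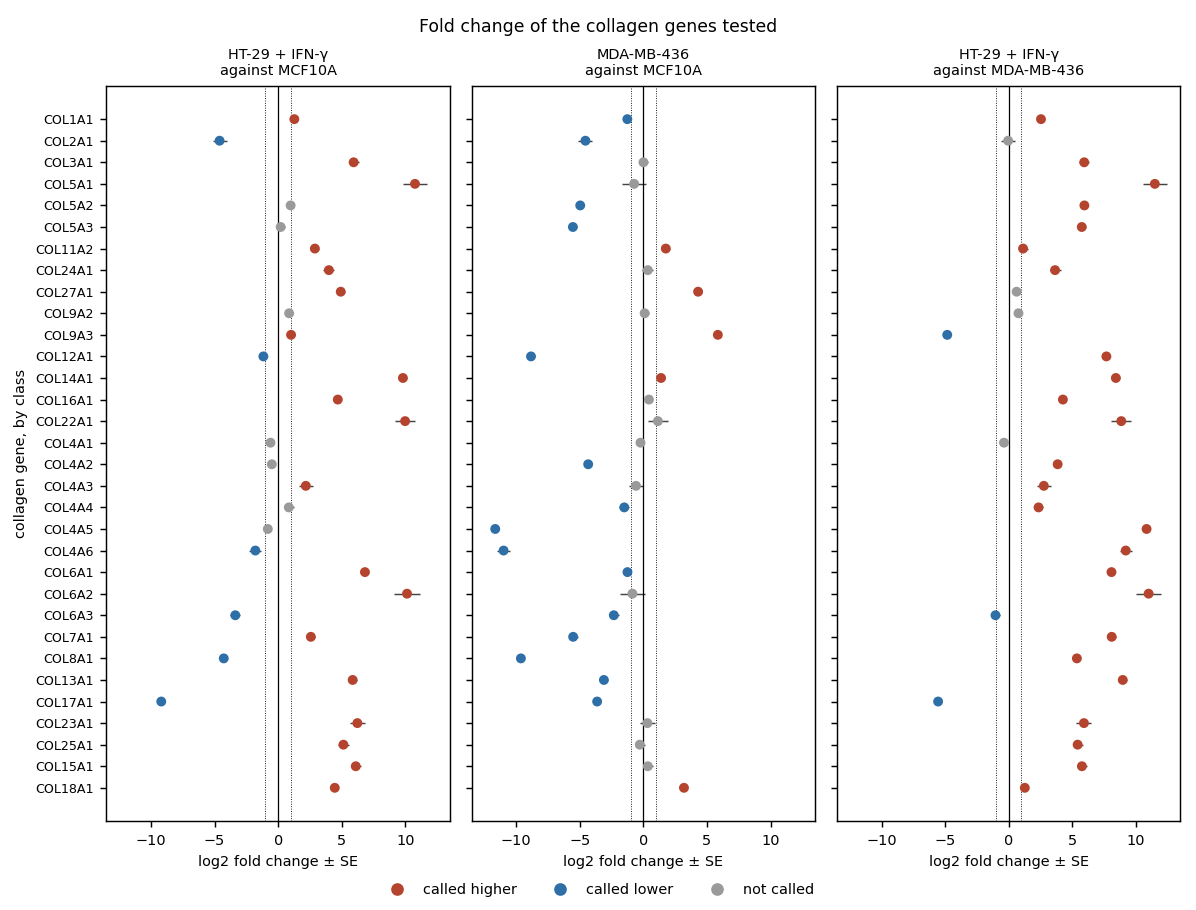
Log2 fold change with its standard error (horizontal axis) of the 32 collagen genes tested (rows, by class) in the 3 comparisons, named by label, with dotted lines at -1 and 1. Most points of the right panel are called higher, with COL9A3, COL17A1 and COL6A3 called lower.

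The fibrillar chains, which form the cross-striated fibrils of connective tissue, were called higher in 6 of 11 cases in the HT-29-labelled libraries against MCF10A, with 1 lower, 2 not called and 2 not tested, where 28.4% and 18.1% of all genes tested were called higher and lower. COL5A1, a chain of the type V collagen that starts fibrils, had 7668 and 7750.1 normalised counts in the HT-29-labelled libraries, 6.18 and 0 in the MDA-MB-436-labelled ones and 1.87 and 5.89 in MCF10A. The MDA-MB-436 values are 3 and 0 reads and the MCF10A values 1 and 12 reads. COL5A1 was 1528-fold higher (95% interval 894 to 2871) by pooled reads in the HT-29-labelled libraries than in MCF10A (limma log2 fold change 10.76 ± 0.93, adjusted p = 5.88e-05). That log2 value was 10.13 without the 25M and 11.39 without the deeper MCF10A library. Its partner COL5A2 had 338 and 379.7 (HT-29 label), 6.18 and 3.70 (MDA-MB-436 label) and 174 and 188 (MCF10A) normalised counts, a much smaller spread between the HT-29 and MCF10A labels. For COL5A2 the log2 fold change against MCF10A was 0.98 ± 0.22, just under the fold threshold (limma adjusted p = 0.00396), and it passed when libraries were scaled by total reads, at 1.29, or without the 25M HT-29-labelled library, at 1.07, or the deeper MCF10A library, at 1.04. COL5A2 was 43.4-fold lower (95% interval 22.7 to 95.5) in the MDA-MB-436-labelled libraries than in MCF10A (log2 fold change -4.97 ± 0.22, limma adjusted p = 2.11e-07). The MDA-MB-436 values of COL5A2 are 3 and 6 reads.

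COL1A1, a chain of type I collagen, the main collagen of bone, skin and tendon, had 630.0 and 635 normalised counts in the HT-29-labelled libraries, 98.8 and 118 in the MDA-MB-436-labelled ones and 269.6 and 253 in MCF10A. The 3 lines did not overlap. COL1A1 was 2.47-fold higher (95% interval 2.25 to 2.71) in the HT-29-labelled libraries than in MCF10A and 2.26-fold lower (95% interval 1.94 to 2.63) in the MDA-MB-436-labelled ones than in MCF10A, both called by limma (adjusted p = 1.01e-05 and 9.53e-06). Its partner chain COL1A2 stayed at 4 and 5 reads in the HT-29-labelled libraries, 0 and 0 in the MDA-MB-436-labelled ones and 1 and 3 in MCF10A, and was not tested. No line therefore had more than 5 reads of COL1A2 in a library, beside 48 to 1160 of COL1A1.

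COL27A1, a fibrillar chain known from cartilage, had 831 and 771 normalised counts in the HT-29-labelled libraries, 504 and 535 in the MDA-MB-436-labelled ones and 37.5 and 17.2 in MCF10A. Both tumour labels were above MCF10A, with log2 fold changes of 4.92 ± 0.30 and 4.30 ± 0.30 (limma adjusted p = 2.05e-06 and 4.1e-06), and the difference between them, 0.62 ± 0.30, was not called (adjusted p = 0.086). The other fibrillar chains tested stayed under 100 normalised counts in all libraries. COL3A1, known from vessel walls and skin, had 70.5 and 51.4 normalised counts in the HT-29-labelled libraries and 0 reads in the 4 others, so it was at least 48.4-fold higher than in MCF10A by the floor of 3 reads over a line. COL2A1, the main collagen of cartilage, was the single fibrillar chain called highest in MCF10A, with 0 and 1.09 in the HT-29-labelled libraries, 0 and 1.23 in the MDA-MB-436-labelled ones and 31.8 and 36.8 in MCF10A. COL5A3, COL11A2 and COL24A1 ranged from 0 to 73.5 normalised counts.

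The FACIT chains, which sit on the surface of fibrils or at tissue borders, spanned levels from no read to 7937 normalised counts. COL16A1 had 7937 and 7797 normalised counts in the HT-29-labelled libraries, 438 and 382 in the MDA-MB-436-labelled ones and 318 and 289.7 in MCF10A. It was 26.5-fold higher (95% interval 24.6 to 28.5) in the HT-29-labelled libraries than in MCF10A (log2 fold change 4.69 ± 0.07, limma adjusted p = 1.51e-09). COL22A1, known from junctions such as that of muscle and tendon, had 1218 and 1252 in the HT-29-labelled libraries, against 6.18 and 0 in the MDA-MB-436-labelled ones and 0 and 0.491 in MCF10A. The values above 0 outside the HT-29 label are 3 reads and 1 read, and COL22A1 was 3195-fold higher (95% interval 573 to 126246) in the HT-29-labelled libraries than in MCF10A. COL14A1, which binds mature fibrils, had 893 and 901 in the HT-29-labelled libraries, 2.06 and 1.23 in the MDA-MB-436-labelled ones and no read in MCF10A, so it was at least 770.3-fold higher in the HT-29-labelled libraries than in MCF10A (limma adjusted p = 2.98e-08). Against MCF10A, limma also called COL14A1 higher in the MDA-MB-436-labelled libraries, from 1 and 2 reads, and the call was lost under 5 of the alternatives.

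COL12A1 was the FACIT chain that was highest in MCF10A. COL12A1 had 914 and 919 normalised counts in the HT-29-labelled libraries, 2.06 and 5.54 in the MDA-MB-436-labelled ones and 2039 and 2063 in MCF10A. It was 434-fold lower (95% interval 236 to 906) in the MDA-MB-436-labelled libraries than in MCF10A, from 10 reads (log2 fold change -8.84 ± 0.30, limma adjusted p = 6.29e-08). In the HT-29-labelled libraries it was 2.24-fold lower (95% interval 2.14 to 2.36), or -1.16 ± 0.30 on the log2 scale (limma adjusted p = 0.00827), and this call was lost when any 1 library of these lines was left out or when libraries were scaled by total reads, at -0.85. COL9A3, a chain of the cartilage collagen type IX, was the FACIT chain highest in the MDA-MB-436-labelled libraries, with 19.5 and 11.5 in the HT-29-labelled ones, 459 and 452 in the MDA-MB-436-labelled ones and 7.49 and 6.38 in MCF10A. There it was 68.6-fold higher (95% interval 42.6 to 118) than in MCF10A, and it was 33.3-fold lower (95% interval 23.7 to 48.3) in the HT-29-labelled libraries than in the MDA-MB-436-labelled ones (limma adjusted p = 2.66e-07 and 8.06e-07). Under the HT-29 label it was called higher than in MCF10A at 1.02 ± 0.27 on the log2 scale, and was not without the 25M HT-29-labelled library, at 0.66, or the deeper MCF10A library, at 0.91. COL9A3 had 34 reads over the HT-29-labelled libraries and 17 over MCF10A. The call was also lost under other settings, among them edgeR, at 0.95, and a pseudocount of 8, at 0.63. Its partner COL9A2 ranged from 8.35 to 20.2 normalised counts over all 6 libraries and was called in no comparison, and COL9A1 had 4 reads over the MDA-MB-436-labelled libraries and none elsewhere.

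The type IV chains of the basement membrane, the sheet under epithelia, did not share 1 order over the lines. COL4A1 was close in all lines, with 1313 and 1290.2 normalised counts in the HT-29-labelled libraries, 1729 and 1637 in the MDA-MB-436-labelled ones and 1940.0 and 2014 in MCF10A. It reached the fold threshold in no comparison, and the log2 fold changes were -0.60 ± 0.04 for HT-29 and -0.23 ± 0.04 for MDA-MB-436 against MCF10A. COL4A2, its partner in the common type IV trimer, had 3701 and 3783 (HT-29 label), 251 and 267 (MDA-MB-436 label) and 5286 and 5285 (MCF10A). COL4A2 was 20.1-fold lower (95% interval 18.4 to 21.9) in the MDA-MB-436-labelled libraries than in MCF10A (log2 fold change -4.35 ± 0.04, limma adjusted p = 8.63e-11), while the HT-29-labelled libraries and MCF10A differed by -0.50 ± 0.04 and were not called apart.

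COL4A5 and COL4A6 form a trimer known from the basement membranes of skin and smooth muscle. COL4A5 had 1811 and 1853 normalised counts in the HT-29-labelled libraries, 0 and 0 in the MDA-MB-436-labelled ones and 3209.6 and 3234 in MCF10A. With no read in the MDA-MB-436-labelled libraries, COL4A5 was at least 2271-fold lower there than in MCF10A and at least 1295-fold higher in the HT-29-labelled libraries than in the MDA-MB-436-labelled ones (limma adjusted p = 4.98e-11 and 7.32e-11). COL4A6 had 999 and 1063 (HT-29 label), 2.06 and 0 (MDA-MB-436 label) and 3517 and 3633 (MCF10A) normalised counts, of which the value under the MDA-MB-436 label is 1 read, and it was 7612-fold lower (95% interval 1366 to 300678) there than in MCF10A. Its fitted log2 fold change in that comparison was -11.80 without the 25M and -10.19 without the deeper MDA-MB-436-labelled library. Both were below MCF10A under the HT-29 label. For COL4A5 the log2 fold change was -0.81 ± 0.10, under the fold threshold, and for COL4A6 it was -1.79 ± 0.48 (limma adjusted p = 0.0132), a call lost when any 1 library of these lines was left out. COL4A3 and COL4A4, chains of the kidney filter, stayed between 2.06 and 58.5 normalised counts in every library. COL4A3 was called higher in the HT-29-labelled libraries than in MCF10A, at 2.17 ± 0.54, which became 1.48 without the deeper MCF10A library and lost its call without the 25M HT-29-labelled library.

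Type VI chains form beaded microfibrils around cells. COL6A1 had 8653 and 8424 normalised counts in the HT-29-labelled libraries, 30.9 and 30.2 in the MDA-MB-436-labelled ones and 71.2 and 77.6 in MCF10A. COL6A2 had 8756 and 8739.9 in the HT-29-labelled libraries, against 10.3 and 0.616 in the MDA-MB-436-labelled ones and 3.75 and 11.8 in MCF10A. The 2 HT-29-labelled libraries lay far above the 4 others for both genes: COL6A1 was 111-fold higher (95% interval 96.7 to 129) and COL6A2 865-fold higher (95% interval 589.9 to 1324) there than in MCF10A (limma adjusted p = 4.88e-10 and 0.000218). Outside the HT-29 label COL6A2 rested on 5 and 1 reads in the MDA-MB-436 libraries and 2 and 24 in MCF10A, and its log2 fold change of 10.13 ± 0.99 against MCF10A became 9.42 without the 25M and 10.85 without the deeper MCF10A library.

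COL6A3, which completes the common type VI trimer, did not follow them. COL6A3 had 1.5001 and 2.19 normalised counts in the HT-29-labelled libraries, 6.18 and 3.70 in the MDA-MB-436-labelled ones and 33.7 and 23.6 in MCF10A. In the HT-29-labelled libraries this was 1 and 4 reads, and COL6A3 was 12.8-fold lower (95% interval 5.22 to 40.7) there than in MCF10A (log2 fold change -3.37 ± 0.38, limma adjusted p = 7.02e-05). It was also called lower in the HT-29-labelled libraries than in the MDA-MB-436-labelled ones, at -1.04 ± 0.38, but the counts are 5 and 9 reads and the call was lost under 11 of the alternatives. COL6A5 and COL6A6, the other chains that can take its place, had at most 2.06 normalised counts in any library.

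COL7A1, the chain of the anchoring fibrils that tie the basement membrane of skin to the tissue below, had 5514 and 5328 normalised counts in the HT-29-labelled libraries, 12.4 and 28.3 in the MDA-MB-436-labelled ones and 919 and 904 in MCF10A. It was 5.93-fold higher (95% interval 5.67 to 6.20) in the HT-29-labelled libraries and 36.8-fold lower (95% interval 28.0 to 49.4) in the MDA-MB-436-labelled ones than in MCF10A (limma adjusted p = 0.000892 and 2.4e-05). COL8A1, a chain of the hexagonal lattice under vessel and corneal endothelium, was highest in MCF10A, with 48.0 and 33.4 in the HT-29-labelled libraries, 0 and 0 in the MDA-MB-436-labelled ones and 811 and 779 in MCF10A. It was 21.1-fold lower (95% interval 17.1 to 26.2) in the HT-29-labelled libraries and at least 552-fold lower in the MDA-MB-436-labelled ones. COL8A2 had at most 10.5 normalised counts and was not tested.

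Of the transmembrane chains, COL17A1 set MCF10A apart. COL17A1, part of the hemidesmosomes that fix basal epithelial cells to the basement membrane, had 46.5 and 49.8 normalised counts in the HT-29-labelled libraries, 2256 and 2353 in the MDA-MB-436-labelled ones and 28656 and 28793 in MCF10A. The 3 lines did not overlap. COL17A1 was 588-fold lower (95% interval 492 to 708) in the HT-29-labelled libraries than in MCF10A and 12.3-fold lower (95% interval 11.99 to 12.7) in the MDA-MB-436-labelled ones than in MCF10A (log2 fold changes -9.19 ± 0.05 and -3.64 ± 0.05, limma adjusted p = 1.71e-11 and 2.75e-10). Its values under the HT-29 label are 31 and 91 reads, and whether they hold reads like those of KRT14 above was not tested. The basal mammary markers were lower along with COL17A1, all 5 in the HT-29-labelled libraries and 4 of 5 in the MDA-MB-436-labelled ones against MCF10A. Of all genes tested, 18.1% and 23.7% were called lower in these comparisons. The summed level of these markers was 8714 and 8086 normalised counts in the HT-29-labelled libraries, 30316 and 30297 in the MDA-MB-436-labelled ones and 831550.0 and 813882 in MCF10A. No marker of this list was at 0 reads in a library, and their part in the result was not tested.

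The 3 other transmembrane chains were called higher in the HT-29-labelled libraries than in MCF10A. COL13A1, found at cell contacts such as the nerve to muscle synapse, had 678 and 595 normalised counts in the HT-29-labelled libraries, 0 and 0.616 in the MDA-MB-436-labelled ones and 11.2 and 8.84 in MCF10A. It was 66.1-fold higher (95% interval 44.3 to 104) in the HT-29-labelled libraries than in MCF10A (log2 fold change 5.86 ± 0.32, limma adjusted p = 7.45e-07). COL23A1 had 108 and 101 in the HT-29-labelled libraries, against 2.06 and 0 in the MDA-MB-436-labelled ones, which is 1 read, and 0 and 0.982 in MCF10A, which is 2 reads. COL25A1, found in the plaques of Alzheimer's disease, had 45.0 and 38.8 in the HT-29-labelled libraries and at most 1 read in any other library.

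Both multiplexins, basement membrane proteoglycans that are cut to give endostatin-like fragments, were called higher in the HT-29-labelled libraries than in MCF10A. COL18A1 had 3576 and 3519 normalised counts in the HT-29-labelled libraries, 1474 and 1477 in the MDA-MB-436-labelled ones and 146 and 178 in MCF10A. The lines were ordered without overlap, and against MCF10A its log2 fold change was 4.45 ± 0.08 under the HT-29 label and 3.19 ± 0.08 under the MDA-MB-436 label (limma adjusted p = 3.34e-09 and 1.04e-08). COL18A1 and COL27A1 were thus called higher than MCF10A under both tumour labels, as were COL9A3, COL11A2 and COL14A1. Of these, COL11A2 stayed under 100 normalised counts and COL14A1 rested on 3 reads in the MDA-MB-436-labelled libraries. The COL9A3 call under the HT-29 label was lost under several alternatives. Over all genes tested, 28.4% were called higher than MCF10A under the HT-29 label and 25.6% under the MDA-MB-436 label. The share called higher under both labels was not counted. Under the MDA-MB-436 label 15.6% of the tested chains were called higher, below the share of all genes. COL15A1 had 73.5 and 62.4 normalised counts in the HT-29-labelled libraries and no more than 1 read in any other library.

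The 11 chains that failed the filter were COL1A2, COL6A5, COL6A6, COL8A2, COL9A1, COL10A1, COL11A1, COL19A1, COL20A1, COL21A1 and COL28A1. Their highest value in any library was 10.5 normalised counts, for COL8A2 in the 25M HT-29-labelled library. COL28A1 had 0 reads over the HT-29-labelled libraries, 6 over the MDA-MB-436-labelled ones and 22 over MCF10A, so it was at least 7.11-fold lower in the HT-29-labelled libraries than in MCF10A. Differences among the rest, at up to 21 reads over a line, were not tested.

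Chains that share a trimer did not keep 1 ratio across the lines. Out of the reads of COL4A1 and COL4A2, COL4A2 took 73.8% and 74.6% in the HT-29-labelled libraries, 12.7% and 14.0% in the MDA-MB-436-labelled ones, and 73.2% and 72.4% in MCF10A. The exact binomial 95% intervals were 72.3% to 75.3% and 73.7% to 75.5% in the HT-29-labelled libraries, 10.6% to 14.95% and 12.8% to 15.3% in the MDA-MB-436-labelled ones, and 71.7% to 74.5% and 71.7% to 73.1% in MCF10A. The share was thus low in both MDA-MB-436-labelled libraries. It was at least 72.4% in the 4 others, where the intervals of the deeper HT-29-labelled and the deeper MCF10A library did not overlap. COL4A5 took 64.4% and 63.6% of the reads of COL4A5 and COL4A6 in the HT-29-labelled libraries and 47.7% and 47.1% in MCF10A, where the intervals of the lines did not overlap. No share could be read from the single read of that pair in the MDA-MB-436-labelled libraries.

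COL6A1 took 49.7% and 49.1% of the reads of COL6A1 and COL6A2 in the HT-29-labelled libraries, with a ratio per kilobase of 0.807 and 0.787. It took 15 of 20 and 49 of 50 reads in the MDA-MB-436-labelled ones, and 38 of 40 and 158 of 182 in MCF10A. COL6A3 had 1 and 4 reads beside 5837 and 15973 of COL6A2 in the HT-29-labelled libraries, or 0.0171% and 0.0250% of the pair. In MCF10A it had 18 and 48 reads beside 2 and 24 of COL6A2. COL5A1 had 22.7 and 20.4 reads for each read of COL5A2 in the HT-29-labelled libraries, and 0.0108 and 0.0313 in MCF10A, so the larger of these partner chains was not the same in the lines. Intervals and floors cover counting error only.

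**Figure D4:**
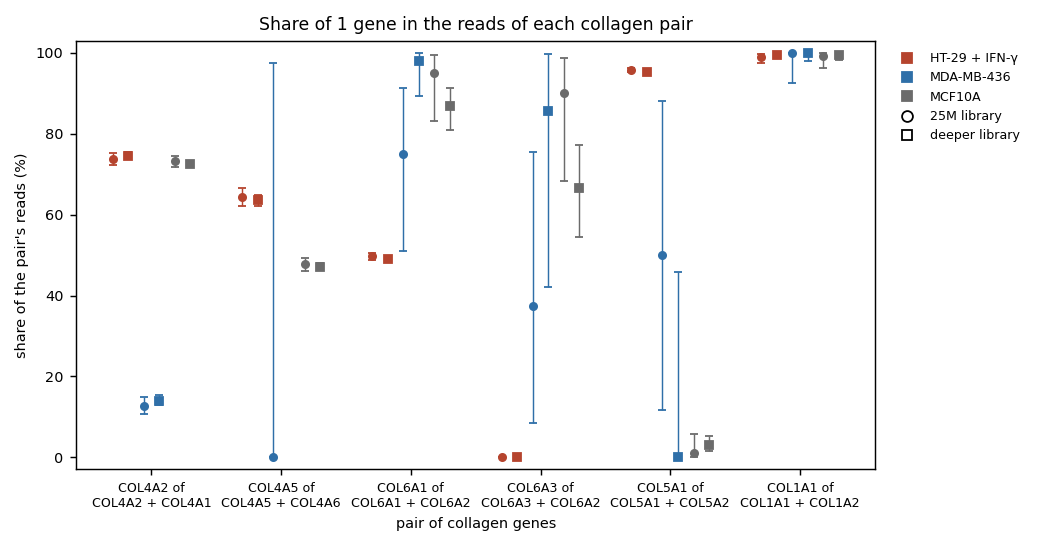
Share of the first-named gene in the reads of 6 pairs of collagen genes (vertical axis, percent), with exact binomial 95% intervals for counting error, in the HT-29-labelled libraries (with IFN-γ), the MDA-MB-436-labelled ones and MCF10A. The COL4A2 share is at most 14.0% in both MDA-MB-436-labelled libraries and at least 72.4% in the 4 others; wide intervals belong to pairs with few reads.

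The genes that modify, trim and cross-link collagen were read from lists drawn up by role. Of 23 hydroxylases, chaperones and export factors, all tested, 5 were called higher and 2 lower in the HT-29-labelled libraries than in MCF10A, with a median log2 fold change of 0.30. The share called was below the 46.5% of all genes. In the MDA-MB-436-labelled libraries against MCF10A 2 were called higher and 12 lower, with a median of -1.10, beside 25.6% and 23.7% of all genes. Between the HT-29-labelled libraries and the MDA-MB-436-labelled ones 14 were called higher and none lower, with a median of 1.78, and 9 were tested and not called, beside 29.9% and 23.5% of all genes. SERPINH1, the collagen chaperone HSP47, had 8999 and 8968 normalised counts in the HT-29-labelled libraries, 1910.4 and 1925 in the MDA-MB-436-labelled ones and 10483 and 10490.3 in MCF10A. P4HB, a prolyl hydroxylase subunit that also acts as a general disulfide isomerase, had 24033 and 23377 (HT-29 label), 35252 and 36134 (MDA-MB-436 label) and 23645 and 23443 (MCF10A), and was called in no comparison.

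CRTAP, part of the prolyl 3-hydroxylation complex, had 10274 and 10277 normalised counts in the HT-29-labelled libraries, 360.3 and 409 in the MDA-MB-436-labelled ones and 11531 and 11216 in MCF10A. It was 28.4-fold lower (95% interval 26.5 to 30.4) in the MDA-MB-436-labelled libraries than in MCF10A (limma adjusted p = 1.86e-10). The prolyl 3-hydroxylases differed among themselves. LEPREL1 was highest in MCF10A, with 422 and 457 in the HT-29-labelled libraries, 39.1 and 32.6 in the MDA-MB-436-labelled ones and 6623 and 6675 in MCF10A. LEPREL2 was highest in the HT-29-labelled libraries, with 3306 and 3177 (HT-29 label), 24.7 and 17.2 (MDA-MB-436 label) and 820.2 and 829 (MCF10A), as was LEPRE1, with 3497 and 3279 (HT-29 label), 274 and 245 (MDA-MB-436 label) and 1477 and 1412 (MCF10A). PLOD2, a lysyl hydroxylase, was highest in MCF10A, with 623 and 629 (HT-29 label), 408 and 395 (MDA-MB-436 label) and 2695 and 2662 (MCF10A). It was called lower in the HT-29-labelled libraries than in MCF10A.

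CREB3L1, a membrane-bound transcription factor known in mouse bone to drive type I collagen genes, had 3321 and 3059 normalised counts in the HT-29-labelled libraries, 5546 and 5577 in the MDA-MB-436-labelled ones and 3.75 and 1.47 in MCF10A. Both tumour labels were far above MCF10A, where it rested on 5 reads, with log2 fold changes of 9.86 ± 0.27 and 10.67 ± 0.27 (limma adjusted p = 8.25e-08 and 4.23e-08). COL1A1 was called higher than MCF10A under the HT-29 label and lower under the MDA-MB-436 label. A link of COL1A1 to CREB3L1 was not tested. GLT25D2, a collagen galactosyltransferase, had 183 and 214 in the HT-29-labelled libraries, 18.5 and 21.6 in the MDA-MB-436-labelled ones and 1.87 and 0.982 in MCF10A.

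Of 14 procollagen proteases and cross-linking enzymes, all tested, 8 were called higher and 2 lower in the HT-29-labelled libraries than in MCF10A (median log2 fold change 2.43), beside 28.4% and 18.1% of all genes. In the MDA-MB-436-labelled libraries against MCF10A 2 were called higher and 10 lower (median -1.61, or -1.50 with genes at 0 reads set at their bound), and between the HT-29 and MDA-MB-436 labels 13 were called higher and 1 lower (median 3.28). Of all genes 49.2% and 53.4% were called in these comparisons. PCOLCE, which speeds the removal of the C-propeptide, had 14716 and 13747 normalised counts in the HT-29-labelled libraries, 32.9 and 17.2 in the MDA-MB-436-labelled ones and 76.8 and 59.4 in MCF10A. ADAMTS2, the main N-propeptidase, had 642 and 642 in the HT-29-labelled libraries and at most 2.95 in any other library. TLL1, a C-proteinase, was highest in MCF10A, with 1.5001 and 2.74 (HT-29 label), 0 and 0 (MDA-MB-436 label) and 339 and 319.6 (MCF10A).

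The lysyl oxidases, which start the cross-links, did not share 1 order. LOXL2 had 7808 and 7476 normalised counts in the HT-29-labelled libraries, 4.12 and 0 in the MDA-MB-436-labelled ones and 547 and 490.5 in MCF10A. LOX, the founding member, had 264 and 268 (HT-29 label), 22.6 and 27.7 (MDA-MB-436 label) and 1228 and 1181 (MCF10A), and LOXL4 had 912 and 804 (HT-29 label), 132 and 161 (MDA-MB-436 label) and 5.62 and 0 (MCF10A). LOXL2 and LOXL4 were thus highest in the HT-29-labelled libraries and LOX in MCF10A. TGM2, a transglutaminase that links matrix proteins, was 535-fold higher (95% interval 472 to 609) in the MDA-MB-436-labelled libraries than in MCF10A, with 649.5 and 630.3 in the HT-29-labelled libraries, 51056 and 51531 in the MDA-MB-436-labelled ones and 99.2 and 95.2 in MCF10A. Its log2 fold changes were -6.32 ± 0.04 for HT-29 against MDA-MB-436 and 9.03 ± 0.04 for MDA-MB-436 against MCF10A (limma adjusted p = 1.92e-11 and 5.07e-12).

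Of 11 collagen receptors 10 were tested. In the HT-29-labelled libraries against MCF10A 5 were called higher and 2 lower, with a median log2 fold change of 0.88, beside 28.4% and 18.1% of all genes. In the MDA-MB-436-labelled ones against MCF10A 3 were higher and 2 lower (median -0.12), and between the HT-29 and MDA-MB-436 labels 4 were higher and 3 lower (median 0.18). Of all genes 49.2% and 53.4% were called in these comparisons, so the MDA-MB-436 count is at the background and shows nothing about receptors. The discoidin domain receptors, kinases that bind fibrillar and other collagens, differed in order. DDR2 had 2192 and 2146 normalised counts in the HT-29-labelled libraries, 24.7 and 26.5 in the MDA-MB-436-labelled ones and 20.6 and 18.2 in MCF10A, while DDR1 had 1967 and 1857 (HT-29 label), 5758 and 5817 (MDA-MB-436 label) and 6972 and 6797 (MCF10A). DDR2 was 116-fold higher (95% interval 87.1 to 157) in the HT-29-labelled libraries than in MCF10A, and DDR1 was called lower there (log2 fold change -1.85 ± 0.03, limma adjusted p = 3.06e-09).

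MRC2, an endocytic receptor that takes up collagen fragments, had 3168 and 3133 normalised counts in the HT-29-labelled libraries, 16.5 and 24.6 in the MDA-MB-436-labelled ones and 95.5 and 104 in MCF10A. LAIR1, an inhibitory collagen receptor of leukocytes, had 333 and 266 in the HT-29-labelled libraries and at most 1 read in any other library. Among integrin chains, ITGA10 was high in MCF10A alone, with 1.5001 and 10.4 (HT-29 label), 10.3 and 5.54 (MDA-MB-436 label) and 702 and 670.2 (MCF10A), and ITGA1 was highest in the MDA-MB-436-labelled libraries, with 207 and 214 (HT-29 label), 1097 and 1101 (MDA-MB-436 label) and 397 and 434 (MCF10A). GPR56, an adhesion receptor that binds type III collagen, had 2006 and 1929.9 in the HT-29-labelled libraries, 8226 and 7859 in the MDA-MB-436-labelled ones and 768 and 728 in MCF10A. COL3A1 itself had no read in the MDA-MB-436-labelled ones. ITGB1, the common beta chain, and ITGA2 were called in no comparison.

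**Figure D5:**
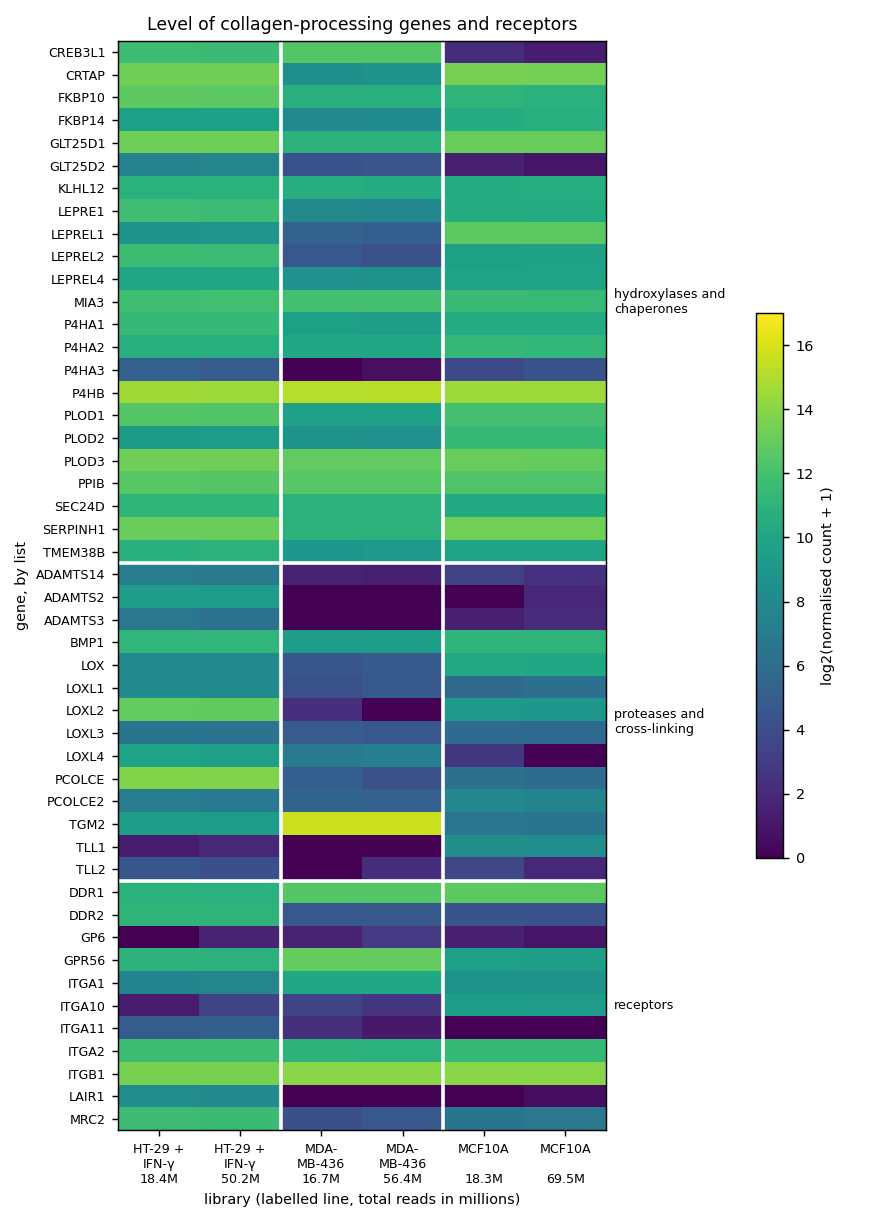
Level of 48 genes that modify, trim, cross-link or bind collagen (rows, by list) in the 6 libraries (columns, named by labelled line and total reads), as log2(normalised count + 1) in colour. Several rows, such as LOXL2, PCOLCE, DDR2 and MRC2, are brightest in the HT-29-labelled libraries, and TGM2 is brightest in the MDA-MB-436-labelled ones.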

How the data were processed

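Total RNA of 3 cell lines was sequenced in 2 libraries each. Per the file headers, each deposited table lists symbols with 2 values, normalised counts and RPKM, over 23368 rows. The submitters' processing notes name FastQC, STAR 2.2.0, HTSeq and the build hg19 without settings. Annotation and strand setting: not given in the sources used here, and reads of antisense or overlapping genes can therefore not be told apart. In the deposited normalised counts, a signal the authors had divided by a library factor, 100% of values were whole multiples of the library's smallest step within a tolerance of 0.001, and dividing by it gave back whole reads. The deposited RPKM column was out of register with the symbols (5278 of 140208 values disagreed on being 0, against 16 once RPKM was put in case-insensitive order) and was not used. Of the rows, 28 with dates for symbols were left out, 4 of them with a repeated name.

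All 6 libraries entered 1 limma 3.58.1 fit (R 4.3.3, trended and robust prior, 3 residual degrees of freedom) of log2(normalised count + 1), a scale that understates changes of low genes; the fit was tested on simulated data. A fold higher or lower is the ratio of a line's summed reads, each adjusted for the library factors, with its exact 95% counting interval; for lines without a read, 3 reads over the line stood in. Levels per kilobase used GENCODE 29 transcript lengths, found for all 43 chains. Between libraries of a line the median chi-square of the counts over genes was 0.709, 0.672 and 0.546 for HT-29, MDA-MB-436 and MCF10A labels, against 0.455 for sampling alone, so they differed by more than sampling noise; each entered the fit as a sample, although both may come from 1 culture or RNA. The MCF10A deeper library is labelled 100M reads in its title and 50M in its sample type. Alternatives included edgeR 4.0.16 and DESeq2 1.42.0 on the recovered reads.

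Named chains are those with a mean of at least 100 normalised counts in a line and their trimer partners; list genes are up to 3 per direction and comparison with the widest called change and at least 100 counts in the higher line, and others named were chosen after their values were seen. The chains and lists were chosen with earlier results of these data known.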

Additional observations from a re-analysis of the deposited data

How the results depend on the processing

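Over 32 tested chains and 3 comparisons, 14 alternative settings and 6 left-out libraries gave 1896 values: 1827 kept their call, 49 lost it, 20 gained it and none changed direction with a call. Under the MDA-MB-436 label 5 chains were called higher than in MCF10A, and 8 with no filter on low values, 3 with limma's treat test against a 2-fold change and 3 with libraries thinned to equal depth. Those called lower in the HT-29-labelled libraries than in the MDA-MB-436-labelled ones numbered 3, and 7 with no filter. The first setting tests more chains and treat asks for a wider change. Thinning tested the same 32 chains, and COL11A2 and COL14A1 lost their calls, at 1.52 and 0.77; the cause was not tested. Collagen RPM became 2289 in the HT-29-labelled libraries, 245 in the MDA-MB-436-labelled ones and 1700.2 in MCF10A when the 100 most abundant genes were left out of the total.

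With 1 library left out in turn, the chains called higher and lower were 18 to 20 and 4 to 6 for HT-29 against MCF10A, 5 to 6 and 14 to 17 for MDA-MB-436 against MCF10A, and 24 to 25 and 2 to 3 for HT-29 against MDA-MB-436. The read depth class used as a replicate block gave 19 and 6, 5 and 15, and 25 and 3, and changed no call. Over all genes tested, the differences between the libraries of a line were nearly uncorrelated among the lines (0.0276, -0.00282 and 0.00731). Such a correlation cannot show an effect in a few genes, such as that seen for KRT5 and KRT14. COL5A1 and COL6A2 were called lower in the MDA-MB-436-labelled libraries than in MCF10A without the 25M MDA-MB-436 library, at -2.15 and -2.27, and COL22A1 higher without the deeper one, at 2.56. With no library left out, edgeR also called COL5A1 and COL6A2 lower, at -1.81 and -1.84, as did limma-voom on the recovered reads, at -2.16 and -2.24. The main fit called neither. COL5A2 was called higher in the HT-29-labelled libraries than in MCF10A without their 25M library, at 1.07, or without the deeper MCF10A library, at 1.04, and in the same pair COL9A3 lost its call without the 25M HT-29 library, at 0.66, or the deeper MCF10A library, at 0.91. COL9A2 was called in that pair without the 25M MCF10A library, at 1.16. COL11A2 lost its call between the HT-29 and MDA-MB-436 labels without the deeper MDA-MB-436 library, at 0.72, or either HT-29-labelled library, at 1.10 and 1.15, and COL4A4 between the MDA-MB-436 label and MCF10A without the deeper MCF10A library, at -1.26. Without the deeper MDA-MB-436 library the HT-29 against MDA-MB-436 changes of COL5A1, COL6A2, COL22A1, COL23A1 and COL4A6 were 10.07, 9.60, 7.43, 5.11 and 8.40, and without its 25M library 12.91, 12.40, 10.27, 6.72 and 10.01. Of 3459 values of the list genes, chosen after the data were seen, 3377 kept their call and none turned; LOXL4 between the HT-29 and MDA-MB-436 labels lost its call under 7 settings. Chains of a few reads are limited by depth.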

Other observations

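A further 25 genes whose proteins carry a collagen-like stretch but are not named as collagen chains were listed after values had been seen, and 11 of them passed the filter on low values. For the HT-29 label against MCF10A 7 were called higher and 2 lower, for the MDA-MB-436 label against MCF10A 3 and 4, and between the HT-29 and MDA-MB-436 labels 9 and 1 (limma), where 46.5%, 49.2% and 53.4% of all genes were called. COLEC12, a scavenger receptor of the collectin family, had 213 and 201 normalised counts in the HT-29-labelled libraries, 0 and 1.23 in the MDA-MB-436-labelled ones and 0 and 0 in MCF10A. CTHRC1, a secreted protein with a short collagen repeat, had 116 and 104 (HT-29 label), 4.12 and 9.24 (MDA-MB-436 label) and 0 and 2.45 (MCF10A). SCARA3 was highest in MCF10A, with 363 and 355 (HT-29 label), 2.06 and 0.616 (MDA-MB-436 label) and 1496 and 1611 (MCF10A), and GLDN in the MDA-MB-436-labelled libraries, with 4.50 and 0.547 (HT-29 label), 181 and 177 (MDA-MB-436 label) and 0 and 0 (MCF10A). EMID2, which RefSeq lists as an older symbol of COL26A1 and which the naming rule therefore missed, had 42.0 and 30.6 in the HT-29-labelled libraries and no more than 1 read in any other library.

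Among genes of similar range over the lines, those with the highest Pearson correlation with a chain over the 6 libraries were SLFN11 and GREM1 for COL6A2 (0.993 for both, of 335 genes), S100A8 and GLI3 for COL4A5 (0.999992 and 0.999, of 142) and GNA15 and TNFRSF10D for COL17A1 (0.997 and 0.995, of 560). The 6 libraries are 3 lines with 2 libraries each, so these values describe little more than the order and spacing of 3 line means.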
